A study of Mus musculus with 18 samples.

Results

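Enterocytes are the absorptive cells of the small intestine and are no part of the stomach's own lining. In the single-cell data of the mouse glandular stomach, the cells of cluster 5-7 carried the transcripts of these cells, and the authors had named most of them duodenum in an earlier annotation. They were taken by the cluster label of the deposited cell annotation, which gave 70 of the 491 kept cells of dataset 1. Of the 70 cells, 50 had the earlier name duodenum, the other 20 had no earlier name, and no cell of another cluster had that name. Cluster 5-7 joins 39 cells of Seurat cluster 5 and 31 cells of Seurat cluster 7.

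Dataset 1 held cells of corpus and antrum gastric units of C57BL/6J mice, WT, male and 10 weeks old, with no treatment in any group. Cells were prepared as 2 pools of 3 mice, each pool was sorted into 3 plates of 384 wells, and every well was measured by Quartz-Seq2, a plate method that counts each transcript molecule by its unique molecular identifier (UMI). Dead cells were gated out by a dye, given as ToPro3 in the labels and as propidium iodide in the methods, and single cells with at least 2500 detected genes were kept. The plates held between 3054370 and 5346035 UMIs over all wells. The comparison groups were the 329 cells of the 8 gastric epithelial clusters (0, 1, 2, 3, 4-15, 6, 8 and 10), and above all the 81 antrum pit cells, which were 49 mature pit cells (cluster 1) and 32 pre-pit cells (cluster 6). Corpus and antrum units went into 1 suspension per pool and no label gives the region of a single cell, and the duodenum was not dissected as a sample of its own. Each pool had its own mice and its own operator, and these 2 differences cannot be told apart.

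The duodenum begins directly below the pylorus, where the antrum ends. Its enterocytes carry a brush border of microvilli with bound enzymes that finish the digestion of sugars and peptides, and they take up fat, sugars, amino acids, iron, calcium and folate. Absorbed fat is packed with apolipoproteins into chylomicrons, and the cells move from the base of the villus to its tip within a few days, changing their programme on the way. HNF4, HNF1, CDX and GATA proteins are the known transcription factors of these cells. Gastric pit cells, which line the surface and the pits of the stomach, instead secrete mucins, trefoil peptides and gastrokines.

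The 5 genes that define the enterocytes here are Fabp1 and Fabp2, which bind fatty acids inside the cell, Apoa4, an apolipoprotein of chylomicrons, Alpi, the intestinal alkaline phosphatase, and Sis, the sucrase-isomaltase. Their promoters are shown because these genes were high together in the 70 cells. The windows are the 250 bases before the RefSeq start site (table of GRCm38.p6), each of which matched GRCm39 exactly and at 1 place on its chromosome. Fabp1 lies at chr6:71176809-71182016 on the plus strand, and its window at chr6:71176613-71176862 has its last 54 bases inside the gene as GENCODE gives it. Fabp2 lies at chr3:122688721-122693155 on the plus strand with the window at chr3:122688471-122688720. Apoa4 lies at chr9:46151994-46154757 on the plus strand, and 148 bases of its window at chr9:46151892-46152141 are inside the GENCODE gene. Alpi lies at chr1:87025724-87029328 on the minus strand with the window at chr1:87029329-87029578. Sis lies at chr3:72795890-72875196 on the minus strand with the window at chr3:72875197-72875446. Each sequence is given 5′ to 3′ on the strand of the gene, and capitals mark matches on either strand to the letters GTTAAT for HNF1, CAAAGTNCA for HNF4, CATAAA for CDX and AGATAA for GATA factors.
Fabp1: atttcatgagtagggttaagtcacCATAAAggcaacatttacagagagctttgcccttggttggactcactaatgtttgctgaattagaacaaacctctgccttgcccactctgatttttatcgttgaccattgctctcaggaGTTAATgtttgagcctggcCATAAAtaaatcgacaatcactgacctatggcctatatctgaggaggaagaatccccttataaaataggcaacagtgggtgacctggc
Fabp2: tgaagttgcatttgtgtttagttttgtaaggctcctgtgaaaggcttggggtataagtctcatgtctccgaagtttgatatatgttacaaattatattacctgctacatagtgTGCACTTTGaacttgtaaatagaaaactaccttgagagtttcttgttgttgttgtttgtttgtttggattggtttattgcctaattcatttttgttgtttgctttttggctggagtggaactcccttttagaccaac
Apoa4: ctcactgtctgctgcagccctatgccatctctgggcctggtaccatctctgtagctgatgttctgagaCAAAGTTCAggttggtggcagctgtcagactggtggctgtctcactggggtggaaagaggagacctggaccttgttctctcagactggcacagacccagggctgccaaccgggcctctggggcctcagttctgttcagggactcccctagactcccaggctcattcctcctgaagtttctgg
Alpi: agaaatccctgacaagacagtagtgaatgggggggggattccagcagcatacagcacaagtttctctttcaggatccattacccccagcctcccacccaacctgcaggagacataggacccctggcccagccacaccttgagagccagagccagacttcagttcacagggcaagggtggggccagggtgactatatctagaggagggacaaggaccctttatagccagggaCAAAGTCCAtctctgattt
Sis: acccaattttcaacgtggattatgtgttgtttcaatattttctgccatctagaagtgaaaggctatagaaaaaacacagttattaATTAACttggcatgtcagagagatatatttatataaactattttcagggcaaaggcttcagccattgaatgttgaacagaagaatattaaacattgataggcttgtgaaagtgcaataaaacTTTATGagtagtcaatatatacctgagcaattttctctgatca
GTTAAT was found in the windows of Fabp1 and Sis, CAAAGTNCA in those of Fabp2, Apoa4 and Alpi, and CATAAA at 2 places in that of Fabp1 and at 1 place in that of Sis. AGATAA was in none of the 5 windows, and no marked motif overlapped another. Over all 32817 RefSeq windows of this length, GTTAAT was present in 6.44%, CAAAGTNCA in 1.19%, CATAAA in 10.8% and AGATAA in 9.99%. A match describes the letters only, and binding was not measured.

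The label was checked against the markers in single cells, as UMIs per 10000 UMIs of the cell. The summed level of the 5 markers was between 50.1 and 653 in the 70 cells with a median of 345, while the highest value among the other 421 kept cells was 33.0, in an antrum pit cell. The ranges did not overlap, which describes the clusters and is no test, since they were made from the same genes. All 5 markers had a UMI in 59 of the 70 cells and at least 4 in all 70, whereas 2 of the 421 other cells had all 5. Genes of the gastric surface were near background. The sum of Gkn1 and Gkn2 (gastrokines), Tff1 (a trefoil peptide) and Muc5ac (the surface mucin) had a median of 10.3 in the 70 cells, beside 4.20 in parietal cells (cluster 0), 6.33 in neck cells (cluster 3) and 1242 in antrum pit cells. The cells thus carried the markers of enterocytes. No list used here separates the duodenum from the jejunum, so the word duodenal rests on the authors' annotation and on the place of the dissection.

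**Figure D1:**
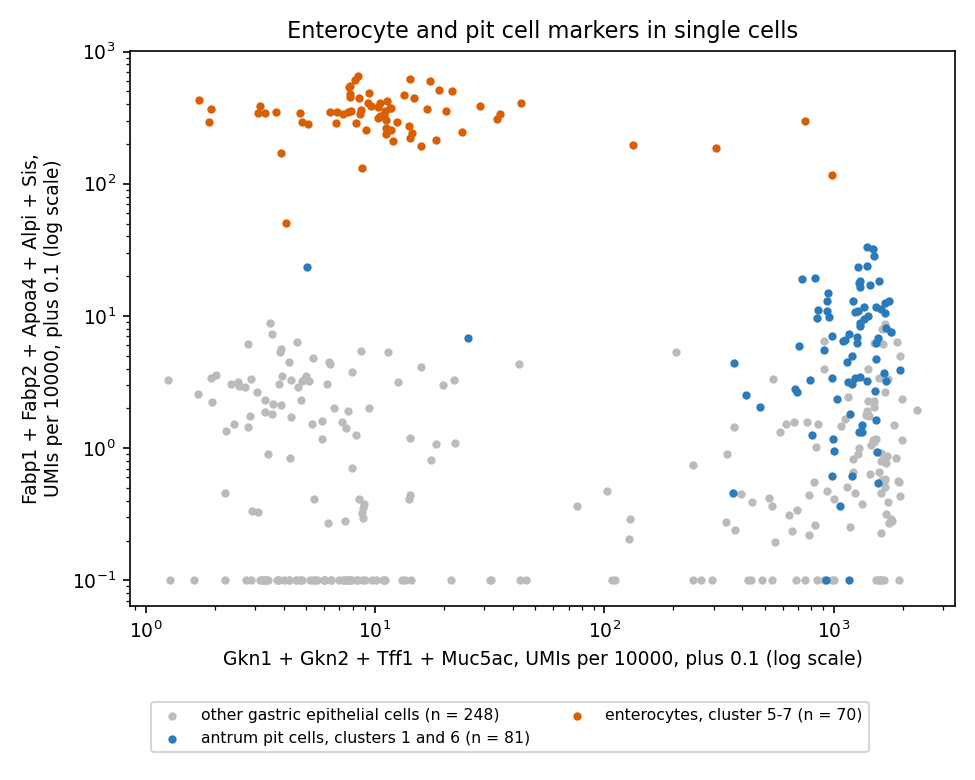
Summed UMIs per 10000 of 5 enterocyte markers (y axis) against 4 pit cell markers (x axis), both with 0.1 added and on log scales, with 1 point per cell. The 70 enterocytes lie between 50.1 and 653 on the y axis, above the highest gastric cell at 33.0, and 4 of them have pit markers over 100.

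A few cells stood apart. In 4 of the 70 cells the pit marker sum was over 100, at 133, 307, 749 and 981 UMIs per 10000, while the next cell had 43.4. All 4 belonged to Seurat cluster 5, 3 were on plate 29 and 1 on plate 25, and each still had an enterocyte marker sum of 116 to 301. No doublet caller was run, and whether these wells held 2 cells was not tested. Values without these 4 cells are given for some results only. Of the 72 named differences from antrum pit cells, 6 moved by over 1.5-fold without them. The cell with the most UMIs, 72289, was the one at 307. It was called G2M by the authors, and it had 19 UMIs of Mki67 and 18 of Top2a, both genes of dividing cells, and 14 of Olfm4, a crypt gene. The second cell called G2M, on plate 31, had no UMI of Mki67 or Top2a, no Apoa4 and the lowest enterocyte marker sum of all, 50.1. The remaining 68 cells were called G1. The 384 well barcodes were the same on all 6 plates, and the 70 cells carried 64 different ones, 6 of them on more than 1 plate.

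The 5 markers were compared between the UMIs summed over the enterocytes and over the antrum pit cells of each pool. Levels are UMIs per 10000, and differences are log2 fold changes with their SE from 1 edgeR fit over the 18 sums of 9 clusters and 2 pools. The value for antrum pit cells is the mean of mature pit cells (cluster 1) and pre-pit cells (cluster 6) on the log2 scale, and the SE does not cover their spread. Against mature pit cells alone, 24 of the 72 named differences moved by over 1.5-fold. Pre-pit cells include 2 cells with high goblet cell genes, described below, and no difference was computed without them. Fabp1 was at 57.5 and 68.5 in the enterocytes of pools 1 and 2 and at 0.00766 and 0.0359 in antrum pit cells, a difference of 11.83 ± 0.47. Apoa4 was at 152 and 102 against 0.00383 and 0.150, a difference of 11.13 ± 0.43. Both genes had a higher level in parietal cells than in pit cells, up to 0.876 for Fabp1 and 2.18 for Apoa4. Alpi was at 93.5 and 69.9 against 0.762 and 1.08, a difference of 6.86 ± 0.29. Sis had 2436 UMIs in the enterocytes and 3 in the antrum pit cells, a ratio of 2202 with a counting interval from 752 to 10683. Fabp2 was the marker with the smallest difference, 3.89 ± 0.33, and antrum pit cells had it too, at 7.46 and 8.17 beside 83.9 and 74.8 in enterocytes. In antrum pit cells 78 of 81 cells had a Fabp2 UMI, and the pit cells held 3311 UMIs of Fabp2 and 26 of Apoa4, where the enterocytes held 12200 and 18240. The 2 genes were therefore not in the same ratio in the pit cells as in the enterocytes, and the marker sum of pit cells was mostly Fabp2.

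Across all genes, 10604 passed the filter on low counts. Of these, 2750 (25.9%) were called higher and 2357 (22.2%) lower in enterocytes than in antrum pit cells at an adjusted p under 0.05. Against all gastric clusters, each weighted equally, 3115 (29.4%) were called higher and 2491 (23.5%) lower. Since the clusters were made from these genes, the calls describe how far apart they lie, and no p-value is given for a gene. The counts of each list below are to be read beside these shares, and a list gene may have passed the filter only through its counts in enterocytes.

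Genes of fat absorption were higher throughout. All 21 listed genes were tested and all 21 were called higher than in antrum pit cells, with a median difference of 5.36 beside 0 over all genes. Their summed level was 212 and 219 UMIs per 10000 in the enterocytes of pools 1 and 2 and 9.62 and 8.54 in antrum pit cells. Mogat2 and Dgat1, which rebuild triglyceride from absorbed fatty acids, were at 4.83 and 4.95 and at 8.57 and 8.52, with differences of 5.02 ± 0.22 and 3.17 ± 0.18, and Dgat2 differed by 1.57 ± 0.23. Mttp, which loads lipid onto apolipoprotein B, was at 15.2 and 19.4 and differed by 10.12 ± 0.26. The chylomicron protein Apob was at 2.17 and 2.53 with a difference of 6.00 ± 0.43 (4.498 against mature and 7.502 against pre-pit cells). Apoc3 had 1639 UMIs in enterocytes and 2 in antrum pit cells, a ratio of 2222 with an interval from 614 to 18362. Apoa1 was at 128 and 127 and differed by 10.84 ± 0.36 from pit cells, but parietal cells reached 78.1, and they made up most of the highest gastric sum of this list, 85.2. Npc1l1, the cholesterol importer, differed by 5.36 ± 0.21, and Creb3l3, a transcription factor of lipid genes, by 8.09 ± 0.27 (6.53 and 9.66 against the clusters in the same order).

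Enzymes of the brush border showed the same direction. Of 15 listed genes 13 were tested, and all 13 were called higher, with a median difference of 10.14. The list summed to 54.2 and 70.7 in enterocytes and to 0.337 and 0.461 in antrum pit cells. Mgam, the maltase-glucoamylase, was at 7.87 and 16.0 and differed by 9.80 ± 0.42. Lct, the lactase, was at 4.04 and 6.52 with a ratio of 834 (interval from 284 to 4052), and Treh, the trehalase, was at 5.58 and 5.22 with a ratio of 1139 (interval from 314 to 9418). Tmprss15, the enteropeptidase that activates trypsinogen and is known from the duodenum, was at 3.08 and 3.51. It had no UMI in antrum pit cells, so it was at least 484-fold higher against a floor of 3 UMIs over the 81 cells, and the aminopeptidase Enpep was at least 338-fold higher.

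Transporters of sugars and amino acids were called higher in 15 of 15 tested genes out of 16, with a median difference of 9.15, and summed to 72.0 and 95.8 beside 1.69 and 1.59 in pit cells. Slc5a1, which takes up glucose with sodium, was at 7.33 and 12.3 and had no UMI in antrum pit cells, at least 1564-fold higher. Slc2a2, the glucose exporter of the basal side, was at 2.36 and 4.29 and at least 537-fold higher but not called by DESeq2 (adjusted p = 0.0864), and the peptide carrier Slc15a1 at least 283-fold higher. The fructose carrier Slc2a5 differed by 5.88 ± 0.33 and the neutral amino acid carrier Slc6a19 by 9.15 ± 0.31. The nucleoside carrier Slc28a2 was uneven, since only 9 of the 70 cells had a UMI.

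Genes of vitamin and retinol uptake were called higher in 7 and lower in 1 of 8 tested genes out of 12 listed, 11 of which were in the tables. Rbp2, the cellular retinol-binding protein of enterocytes, was at 46.7 and 42.6 beside 2.0 and 1.94 in pit cells, a difference of 4.89 ± 0.19. Slc46a1, the folate carrier, was at 5.72 and 5.75, with 2 UMIs in pit cells and a ratio of 1228 (interval from 339 to 10157). The riboflavin carrier Slc52a3 was the gene called lower, by -1.33 ± 0.36, and was not called without the enterocytes of pool 2 (-0.72).

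For iron, calcium and zinc, 12 of 16 tested genes were called higher and 1 lower, with a median difference of 3.99. Their sum was 491 and 370 in enterocytes and 54.7 and 53.7 in pit cells. Fth1, the ferritin heavy chain, was at 191 and 196 beside 12.3 and 12.1, a difference of 4.22 ± 0.14, and S100g, the calcium-binding calbindin-D9k, was at 215 and 115 with a difference of 9.44 ± 0.35. Slc40a1, the iron exporter ferroportin, was at 11.8 and 6.63 with 3 UMIs in pit cells, a ratio of 1148 (interval from 392 to 5573). Cybrd1, the duodenal ferric reductase, was at 6.40 in pool 1 and 0.635 in pool 2, and 18 of the 70 cells had a UMI of it. Vdr, the vitamin D receptor, differed by 8.45 ± 0.27. The metallothionein Mt1 was the gene called lower, at 3.01 and 2.06 against 5.27 and 5.62 (-0.98 ± 0.21), and was not called against mature pit cells alone (-0.40).

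Among 27 genes of drug and xenobiotic metabolism, 25 were called higher and 1 lower, with a median difference of 4.46. Cyp3a11 was at 39.5 and 42.1 and differed by 10.58 ± 0.31, and Cyp2b10 was at 21.2 and 33.7 and differed by 8.93 ± 0.26. The glutathione transferase Gsta4 went the other way, at 17.2 and 19.9 against 59.2 and 59.6 in pit cells (-1.29 ± 0.15). The summed levels differed less than the counts did, 278 and 342 against 158.2 and 156.2. The Cyp3a, Cyp2c and Ces2 families hold closely related genes, so reads could have been split among them and the value of a single gene is uncertain. Of 15 genes of fatty acid oxidation, 12 were called higher and none lower, with a smaller median difference of 1.39 and sums of 36.1 and 35.8 beside a highest gastric sum of 36.0 in parietal cells.

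**Figure D2:**
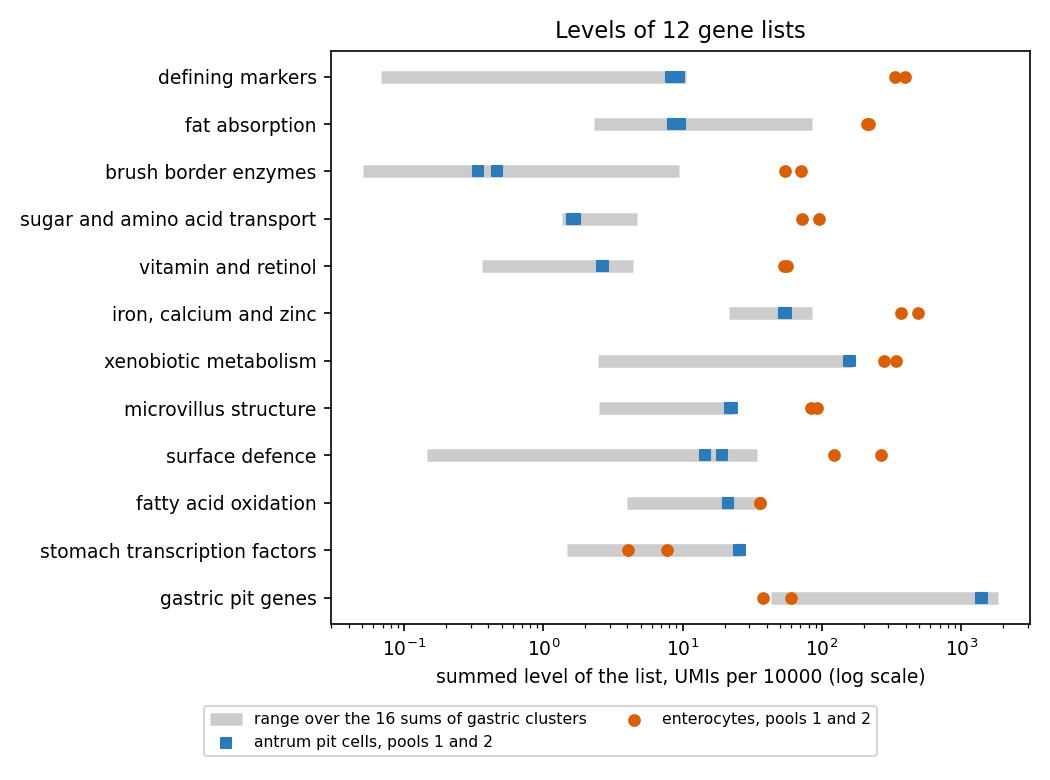
Summed level of 12 gene lists in UMIs per 10000 on a log scale, for the enterocytes of pools 1 and 2 (circles), antrum pit cells of both pools (squares) and the range over the 16 sums of gastric clusters (grey bars). The enterocyte circles lie to the right of the grey bar for the absorptive lists, reach its right end at 36.0 for fatty acid oxidation, and lie near its left end for the gastric pit genes, at 60.2 and 37.9.

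The structure of the microvillus was shared in part with the stomach. Of 14 tested genes 12 were called higher and 1 lower. Vil1, the actin bundler villin, was at 13.6 and 13.4 beside 2.23 and 2.29 in pit cells (2.98 ± 0.14). The cadherins that link microvilli tip to tip, Cdhr2 and Cdhr5, differed more, with ratios of 354 (interval from 231 to 573) and 158.2 (interval from 114 to 226). Their log2 differences were 11.42 and 13.82 against mature pit cells, where Cdhr5 had no UMI, and 7.30 and 5.94 against pre-pit cells. Ezr, ezrin, which ties actin to the membrane, was lower in enterocytes, at 5.14 and 3.88 against 10.7 and 10.4 (-0.86 ± 0.15).

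Transcription factors of the intestine were called higher in 9 and lower in 1 of 13 tested genes. Hnf4a was present in both groups, at 4.41 and 3.12 in enterocytes and 1.55 and 1.63 in pit cells (1.52 ± 0.13), and Hnf4g differed by 3.96 ± 0.38. Onecut2 was at 6.23 and 5.33 (5.83 ± 0.38), and Maf, known from the maturation of enterocytes along the villus, was at 1.91 and 2.76 and at least 362-fold higher. Cdx1, an intestinal homeobox gene, was at 0.397 and 0.591, a ratio of 28.8 (interval from 14.0 to 68.9). Its log2 difference was 9.09 against mature pit cells, which had no UMI of it, and 3.36 against pre-pit cells. Cdx2, its relative, was too low to be tested, with 17 UMIs in 13 of the 70 cells. The antrum pit cells had 2 UMIs of Cdx2, 1 in each of the 2 cells of cluster 6 with high goblet cell genes. Pdx1, which the antrum and the duodenum share, was at 1.28 and 0.956 beside 0.418 and 0.353 (1.70 ± 0.30). Gata4, also used by both organs, was lower, at 1.52 and 1.31 against 2.90 and 3.13 (-0.83 ± 0.14). Of the 9 transcription factors of the stomach list, 8 were called lower and none higher than in antrum pit cells. Against all gastric clusters 4 were called lower and 2 higher, Nkx6-3 (2.38 ± 0.54) and Pparg (1.21 ± 0.40). Sox2, which marks the foregut, had 2 UMIs in the enterocytes, a ratio to antrum pit cells of 0.0589 (interval from 0.00703 to 0.219), and its call was lost without the enterocytes of pool 2 (-2.03). Sox21 had 3 UMIs, a ratio of 0.0147 (interval from 0.00302 to 0.0431), and Foxa3 had 2 UMIs, a ratio of 0.00704 (interval from 0.000851 to 0.0255). The Foxa3 difference moved by 3.84 on the log2 scale without the 4 cells with pit markers.

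Some families had members that differed in both directions. Of 7 tested fatty acid and retinoid binders 3 were called higher (Fabp1, Fabp2 and Rbp2) and 2 lower. Fabp5, 1 of the 2 called lower, was at 0.140 and 0.113 against 7.62 and 8.07 (-5.04 ± 0.33). Of 6 tested claudins, which seal the space between cells, 5 were called higher and 1 lower. Cldn15 of the intestine was at 3.55 and 5.02, a ratio of 94.1 (interval from 61.1 to 153), and Cldn18 of the stomach was at 0.117 and 0.417 against 16.6 and 15.6 (-5.30 ± 0.26). Of the genes of bile acid handling, 3 of 3 tested were called higher. The exporter subunit Slc51b was at least 195-fold higher but not called by DESeq2 (adjusted p = 0.139), while the 2 ileal genes Slc10a2 and Fabp6 had 3 and 0 UMIs in the 70 cells. None of the 9 pit genes was called higher and 8 were called lower. Gkn1 was at 14.8 and 10.5 against 316 and 315 (-4.13 ± 0.28), and without the 4 cells with pit markers at 4.20 and 1.93.

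Genes of surface defence were called higher in 14 and lower in none of 18 tested genes. Reg1, a secreted lectin, had 21392 UMIs in the 70 cells and 5 in the antrum pit cells (levels 64.0 and 162.1 in pools 1 and 2), a ratio of 11600 with an interval from 4970 to 35729. Pigr, which carries IgA through the cell, was at 29.4 and 40.5 and differed by 7.52 ± 0.42 (9.36 against mature and 5.67 against pre-pit cells). The 2 cells of cluster 6 with high goblet cell genes had Pigr at 20.2 and 6.80. Reg3g was at 2.90 and 4.71 and at least 602-fold higher, but Reg3a, Reg3b and Reg3g are close copies and their split is uncertain. Lypd8, which keeps bacteria from the surface of the intestine, was not called (0.96 ± 0.47), except without the enterocytes of pool 1 (1.53), against pre-pit cells alone (1.55) and without a filter on low counts (0.97), and antrum pit cells had it at 14.5 and 9.95 and enterocytes at 8.50 and 23.0.

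By the rule for single genes, the 5 rises with the largest fitted difference from antrum pit cells were Reg1, Slc5a1, Cyp3a25, Ada and Clca4b. Cyp3a25, a cytochrome P450, was at least 1136-fold higher, and Clca4b, of the chloride channel regulator family, at least 683-fold higher. Ada, the adenosine deaminase, had 3412 UMIs against 3, a ratio of 3084 with an interval from 1054 to 14960, in 39 of 70 cells. The 5 largest falls were genes with no UMI in any enterocyte, at levels of 0.599 to 2.10 in pit cells. Against a floor of 3 UMIs over the 70 cells, Slurp1, a secreted Ly6 protein, was at least 99.1-fold lower, Ly6d at least 59.9-fold, Eya2 at least 41.4-fold, Cavin1, a coat protein of caveolae, at least 35.7-fold, and Mcf2l, a guanine nucleotide exchange factor, at least 31.8-fold. Against all gastric clusters, the 5 largest rises included Cyp2c29, Guca2b, which encodes the gut hormone uroguanylin, Cyp3a25 and 2010106E10Rik, which had 16, 5, 2 and 3 UMIs in all gastric clusters together. The largest falls there were Tceal8 and Ttll7, both without a UMI in enterocytes, Lcp1 with 1 UMI, Foxa3 with 2 UMIs and Cmtm8 with 3 UMIs, beside 519 to 2071 UMIs of each in the gastric clusters. The genes whose level followed the summed level of the 5 markers most closely over the 18 sums were Cyb5b and Spint1 (Pearson's r 0.95 each), Sec23a and Golt1a (0.94 each) and Dgat1 (0.93). This is a description, since the genes were picked by this r and the 18 sums share 2 pools and 6 plates. The markers summed to 392 and 334 in the enterocytes and to at most 10.5 in a gastric sum. A gene high in the enterocytes alone therefore tends to have a high r.

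Genes of other cell types of the small intestine were at or near 0 in the 70 cells. The clusters were made from the same genes, so cells rich in them could have been placed elsewhere, and the values are a description. The 7 lymphocyte genes had no UMI in the 70 cells. The sums were at most 0.0700 UMIs per 10000 for Paneth cells, 0.313 for enteroendocrine cells, 0.0869 for tuft cells, 0.0609 for stroma and vessels, and 0.0348 for red blood cells. The crypt and cycle list was at 0.584 and 1.09, with Lgr5 and Ascl2, which mark intestinal stem cells, at 0 UMIs. The 7 goblet cell genes summed to 2.50 and 3.55, and 5 were called lower and none higher than in antrum pit cells, with a median difference of -4.53. Against all gastric clusters 3 were called higher (Tff3, Fcgbp and Zg16) and 2 lower (Agr2 and Spink4), with a median of 2.75. The first comparison rests on antrum pre-pit cells too, since 2 cells of cluster 6, on plates 24 and 29, had goblet sums of 1984 and 2385 with Muc2, the intestinal mucin, at 184 and 258. In these 2 cells Gkn1 was at 9.27 and 1.24, 1 UMI of Cdx2 was found in each and Cldn18 was at 0 UMIs, and they remained in their cluster here. Genes of the response to dissociation were called higher in 11 of 14 genes than in pit cells, for example Zfp36 (3.25 ± 0.28) and Jun (2.96 ± 0.42). Their sums, 30.3 and 27.7 against 13.2 and 9.77, were below the highest gastric sum, 98.99 in neck cells, and the part of handling in the differences above was not tested.

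The 70 cells differed among themselves along genes known to follow the axis of the villus. Because the authors' clustering split the cells by these genes, the values are a description. All 7 listed genes of the villus base (Reg1, Reg3b, Reg3g, Nlrp6, Lypd8, Il18 and Ccl25) and all 7 carriers of the middle (Slc5a1, Slc2a2, Slc2a5, Slc15a1, Slc7a7, Slc7a8 and Slc7a9) were higher in Seurat cluster 5. All 9 genes of the villus tip (Ada, Nt5e, Slc28a2, Apoa4, Apoa1, Apob, Creb3l3, Egfr and Klf4) were higher in Seurat cluster 7. No share over all genes is given for this split, so these counts are not read as a result about the zones. Some of these rest on few cells, since Nt5e had a UMI in 7 of the 70 cells, Slc28a2 in 9 and Egfr in 5, with 6 UMIs in all, and some are near equal, as Slc7a9 at 2.61 and 2.53 and Slc15a1 at 2.07 and 1.80 in Seurat clusters 5 and 7. The base genes summed to a median of 231 UMIs per 10000 in the 39 cells of Seurat cluster 5, between 10.9 and 620, and to 16.7 in the 31 cells of Seurat cluster 7, between 0 and 110. The tip genes summed to 174 and 405 in the same order, with ranges from 1.99 to 523 and from 216 to 1075. The ranges overlapped in both lists. The tip sum was above the base sum in 15 of 39 and in 31 of 31 cells.

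**Figure D3:**
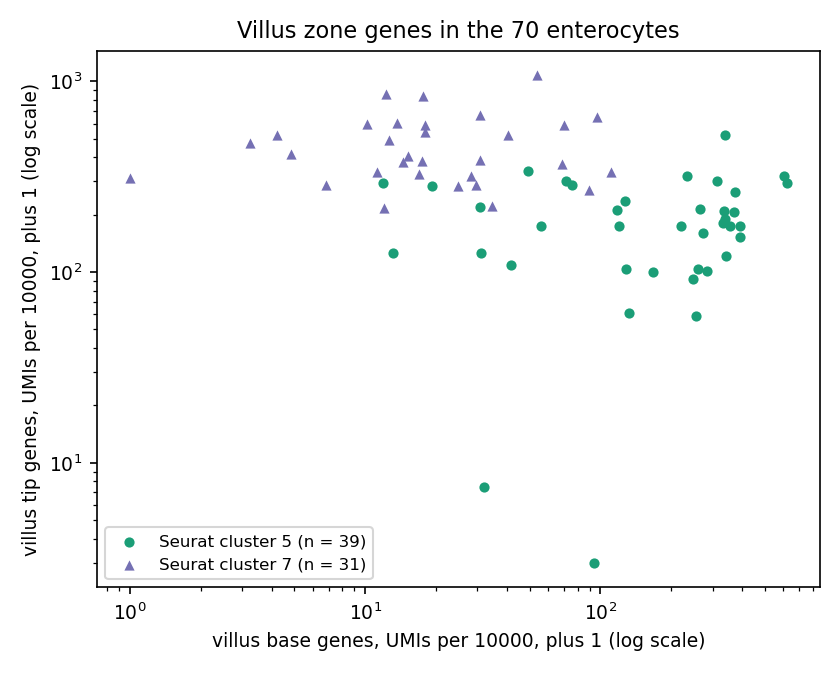
Summed UMIs per 10000 of 9 villus tip genes (y axis) against 7 villus base genes (x axis), with 1 added and on log scales, for the 39 enterocytes of Seurat cluster 5 (circles) and the 31 of Seurat cluster 7 (triangles). The base sums reach 620 in Seurat cluster 5 and 110 in Seurat cluster 7, and the tip sums of Seurat cluster 7 begin at 216.

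Single genes showed the split most clearly. Over the summed cells Lypd8 was at 28.0 in Seurat cluster 5 and 0.0990 in Seurat cluster 7, and Reg1 at 187 and 25.9. Ada was at 0.177 and 67.1, Apoa4 at 62.0 and 229, and the ferric reductase Cybrd1 at 0.0186 and 6.83. Of the defining markers, Sis was at 21.8 and 1.94 and Fabp1 at 84.7 and 24.6, while Fabp2 was at 80.3 and 70.8 and Alpi at 64.2 and 102. S100g was at 79.4 and 274. Ada and Lypd8 rarely met in a cell. With at least 3 UMIs as the limit, 26 cells had Ada without Lypd8, 31 had Lypd8 without Ada, 2 had both and 11 had neither (Spearman's rho -0.68 over 70 cells of 2 pools, as a description). Ada and Sis were both present in 11 cells, Ada alone in 17, Sis alone in 40 and neither in 2 (rho -0.78). The limit of 3 UMIs was not scaled to the UMIs of a cell. Seurat clusters 5 and 7 had medians of 20849 and 15133 UMIs and mitochondrial shares of 10.7% and 14.8%. The part of depth in these counts was not tested.

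Enterocytes gave fewer UMIs than antrum pit cells. The median was 17439 UMIs and 3905 detected genes per enterocyte, between 8116 and 72289 UMIs, and 55721 UMIs and 6889 genes per antrum pit cell. On the log2 scale the median enterocyte of a plate was lower by a mean of -1.56 (SD 0.71 over 6 plates), lower on 6 of 6 plates (exact sign-flip permutation test, two-sided, p = 0.03125, the smallest that 6 plates allow). Thinned to 10000 UMIs per cell, which left out 9 enterocytes, the medians were 2923 and 3239 detected genes. The difference per plate was a mean of -329 genes (SD 98.9), again lower on 6 of 6 plates (same exact test, p = 0.03125), and without thinning it was -2875. The thinned UMIs included mitochondrial ones, with a median share of 13.4% in enterocytes and 4.69% in antrum pit cells. The part of this share in the difference was not tested. The 3 plates of a pool are repeated draws from the same suspension, so these p-values measure the spread between plates. Without mitochondrial genes, the 20 most abundant genes of a cell held a median of 20.1% of its UMIs in enterocytes and 24.6% in antrum pit cells. Mitochondrial transcripts made up a median of 13.4% of the UMIs in enterocytes, between 5.62% and 39.7%, beside 4.69% in antrum pit cells and 17.4% in parietal cells. The 50 cells named duodenum earlier had a median of 21610 UMIs and the 20 unnamed cells 10265, with marker sums of 348 and 250.

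Enterocytes were found on every plate and in both pools. They made up 8 of 88, 8 of 58 and 2 of 58 kept cells on plates 23, 24 and 25 of pool 1, which is 9.09%, 13.8% and 3.45%. On plates 29, 30 and 31 of pool 2 they were 23 of 116, 12 of 86 and 17 of 85 cells, which is 19.8%, 14.0% and 20%. The plates of the pools did not overlap, although plate 24 at 13.8% and plate 30 at 14.0% were almost equal. The mean share was 8.78% ± 5.18 in pool 1 and 17.9% ± 3.44 in pool 2 (SD, n = 3 plates each), a difference of 9.15 percentage points (exact permutation test, two-sided, p = 0.1, the smallest that 3 against 3 plates allow, so this design could not reach 0.05). Summed over plates, the shares were 8.82% (Wilson 95% interval 5.65% to 13.5%) and 18.1% (14.1% to 23.0%), where intervals cover counting error only. Of the enterocytes, 7 of 18 in pool 1 (38.9%, interval 20.3% to 61.4%) and 32 of 52 in pool 2 (61.5%, interval 48.0% to 73.5%) were in Seurat cluster 5, and these intervals overlap.

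**Figure D4:**
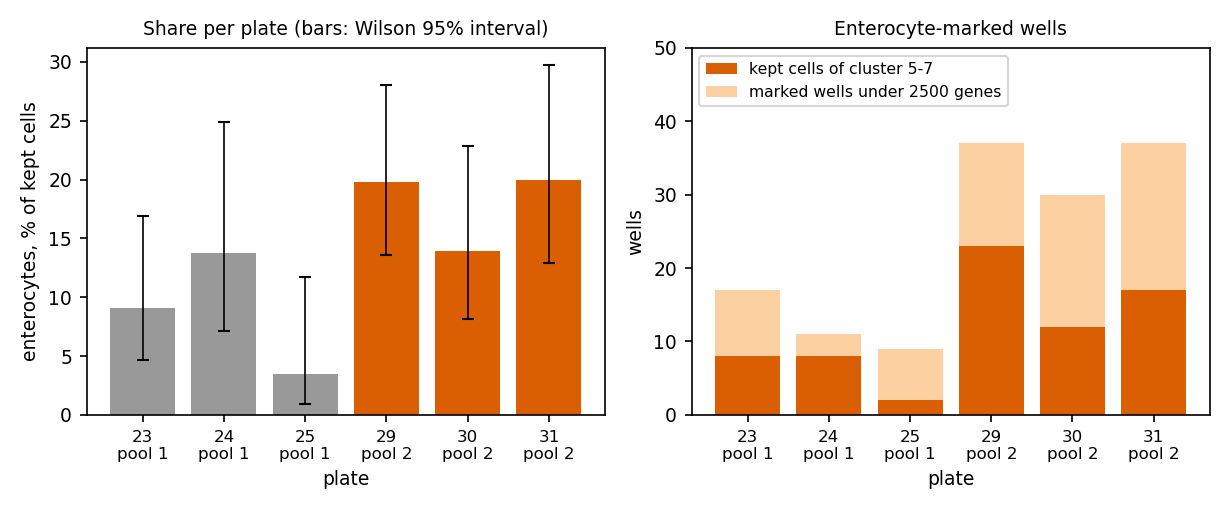
Left, enterocytes as a percentage of the kept cells of each plate with Wilson 95% intervals; right, number of wells with enterocyte markers, as kept cells and as wells under 2500 detected genes. The 3 plates of pool 2 have shares of 14.0% to 20% and those of pool 1 of 3.45% to 13.8%.

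Gene expression of the enterocytes was then compared between the pools, with each plate as a sample. Of 3621 genes tested, 6 were called in edgeR's quasi-likelihood test (0.166%), 2 higher and 4 lower in pool 2, and 286 had an unadjusted p under 0.05. Reg3b, an antimicrobial lectin, was at 0.0574, 0.781 and 0.551 UMIs per 10000 on the plates of pool 1 and at 4.40, 11.1 and 11.3 on those of pool 2, with no overlap (log2 fold change 4.24 ± 0.59, adjusted p = 0.00876). Reg3b was found in 4 of 18 and in 30 of 52 cells. Of its 20 UMIs in pool 1, 16 were in 1 cell, and 4 cells of pool 2 held 576 of 951 UMIs. Its split from Reg3a and Reg3g is uncertain, as given above. Oat, ornithine aminotransferase, was at 0.344, 0.413 and 1.10 in pool 1 and at 1.96, 2.24 and 1.82 in pool 2 (2.12 ± 0.35, adjusted p = 0.0358). Of its 232 UMIs in pool 2, 111 were in 4 cells. S100a6, a calcium-binding protein of gastric pit cells among others, was at 7.52, 7.30 and 3.03 in pool 1 and at 0.181, 0.0801 and 0.0357 in pool 2 (-5.79 ± 0.45, adjusted p = 1.48e-05). Ctse, the gastric protease cathepsin E, was at 7.23, 8.45 and 3.86 against 1.29, 0.0534 and 0.679 (-3.28 ± 0.59, adjusted p = 0.0466). The other 2 called genes, named after their values were seen, were Insig1, a regulator of sterol synthesis, at 1.75 in pool 1 and 0.478 in pool 2 (-1.81 ± 0.33, adjusted p = 0.0482), and Pmm1, a phosphomannomutase, at 1.45 and 0.278 (-2.32 ± 0.40, adjusted p = 0.0403).

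**Figure D5:**
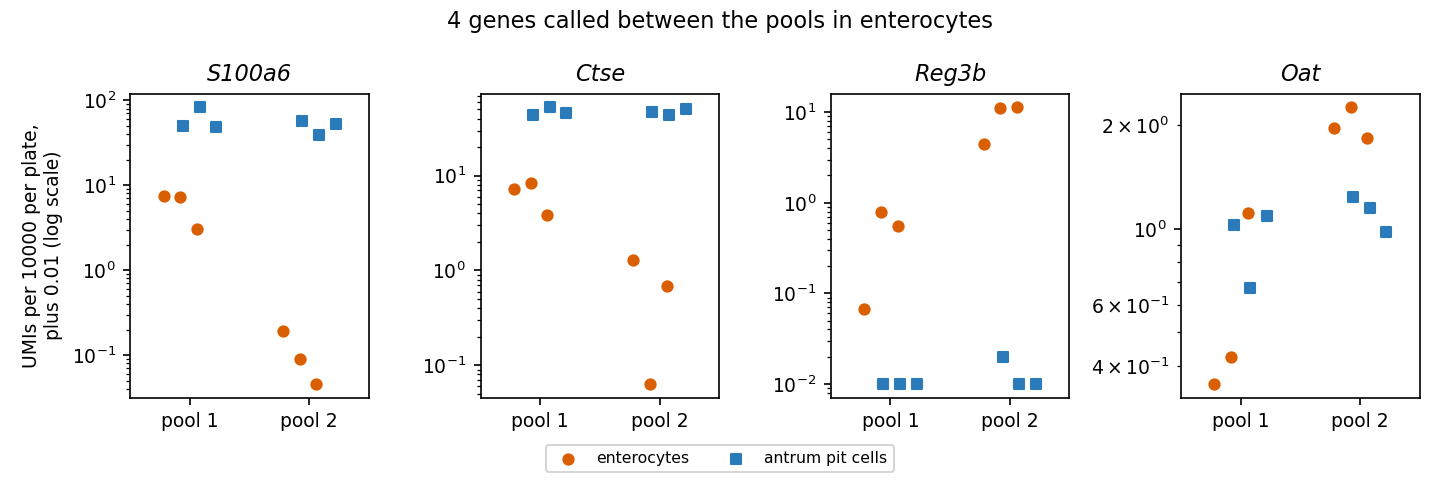
UMIs per 10000 with 0.01 added, on log scales, of S100a6, Ctse, Reg3b and Oat in the summed enterocytes (circles) and antrum pit cells (squares) of each plate, by pool. In enterocytes the plates of the pools do not overlap for any of these 4 genes, while S100a6 in pit cells lies between 39.1 and 82.7 in both pools.

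The S100a6 UMIs of pool 1 were in few cells. In that pool 298 of the 301 S100a6 UMIs were in 4 cells, with 133, 129, 25 and 11 UMIs, on plates 24, 23, 24 and 25, and 7 of 18 cells had any. In pool 2, 13 UMIs were found in 9 of 52 cells. Both cells of plate 24 had the villus tip gene Ada, at 278 and 253 UMIs per 10000, and Krt20, a keratin of mature surface cells, at 75.0 and 58.2. The cell of plate 23 had 71260 UMIs but Apoa4 at 0.281 and no Reg1, and the cell of plate 25 was the one with a pit marker sum of 749. For Ctse, 4 cells of pool 1 held 285 of 324 UMIs, but 13 of 18 cells had one, against 16 of 52 cells in pool 2, with medians of 2.33 and 0 UMIs per 10000. Without the 4 cells with pit markers, the enterocyte left on plate 25 had no S100a6 UMI, so that the plates of the pools overlapped, and the gene did not pass the filter of the test between pools (7.12 and 0.0566 per pool). The S100a6 difference between pools was larger than that in antrum pit cells by -5.46 ± 0.67 on the log2 scale (adjusted p = 0.0013, edgeR interaction test), which was the only gene called of 6336 tested in this fit (0.0158%). With plate as a replicate block, which pairs the sums of a plate, 9 genes were called (S100a6 -5.47, adjusted p = 8.47e-05), and DESeq2 called 5, S100a6 among them in both. Without the cells with pit markers the S100a6 value was -6.23 (adjusted p = 0.00555). In antrum pit cells S100a6 was at 49.3, 82.7 and 48.7 in pool 1 and at 56.7, 39.1 and 52.2 in pool 2. Within Seurat cluster 5 alone or Seurat cluster 7 alone no gene was called between the pools, with fewer cells in each fit. The folds were of similar size there. The interaction of S100a6 was -4.78 and -6.94 (adjusted p = 0.804 and 0.637), Ctse differed between the pools by -2.93 and -2.81, and within Seurat cluster 5 Reg3b differed by 4.105 and Oat by 2.41 (adjusted p = 0.156 and 0.0821).

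No gene of the main absorptive lists was called between the pools, which does not show that their levels were equal. The count was 0 for the 21 fat absorption genes, the 11 tested brush border genes, the 15 tested transporters and the 27 xenobiotic genes. Over all 3621 genes tested the share called was 0.166%. Counts of 0 in lists of this size are near that share and are not read as a result about them. Sis was the marker with the largest pool difference, at 3.96, 5.79 and 8.26 in pool 1 and at 15.7, 26.97 and 15.1 in pool 2, without overlap (1.70 ± 0.35, adjusted p = 0.0967), and it was not called. Sis, Reg1 and Reg3b were all higher in Seurat cluster 5, which held 7 of 18 enterocytes in pool 1 and 32 of 52 in pool 2. Within that cluster Reg3b differed by 4.105 and was not called (adjusted p = 0.156, edgeR's quasi-likelihood test). Whether the mix of Seurat clusters has a part in the pool differences was not tested.

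Enterocyte markers were also present in wells that the authors did not keep. Of 2304 wells, 1812 had under 2500 detected genes, and 71 of these had at least 3 of the 5 markers and a marker sum at or above 50.1, the lowest value of the 70 kept cells. They were 19 wells of pool 1 and 52 of pool 2, with 9, 3 and 7 on plates 23, 24 and 25 and 14, 18 and 20 on plates 29, 30 and 31. Their median was 1381 detected genes and 4797 UMIs, with a marker sum of 147 and a mitochondrial share of 43.9%, and 35 had all 5 markers. The other wells under the minimum had a median marker sum of 0, a 99th percentile of 86.6 and a highest value of 253 in wells with fewer than 3 markers. Together with the kept cells, 141 wells carried enterocyte markers, so 49.6% of them passed the minimum of 2500 genes. The 71 wells and the share of 49.6% depend on the limit, the lowest value of 1 kept cell, which lies below the 99th percentile of the other wells. The fewest detected genes among the 71 wells were 101, and whether each of them held an enterocyte was not tested. With the 5th percentile of the kept enterocytes, 177, as the limit, 27 wells were left.

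Dataset 2, made from the corpus of other mice without the antrum, held no such cell. None of its 4608 wells met the same marker rule, and 3993 of them had at least 2500 detected genes, so a share of up to 0.0751% of these wells is allowed by a count of 0. Summed over whole plates, the 5 markers were at 0.584 to 1.23 UMIs per 10000 on its 12 plates and at 8.85 to 43.4 on the 6 plates of dataset 1. Sis had no UMI on any of the 12 plates, among 141265547 UMIs, and 2637 UMIs in dataset 1, or 1.15 per 10000 beside a floor of 0.000212. Apoa4 had 10350 UMIs in dataset 2 and Fabp1 1355. Dataset 2 differed in its mice, its primers, the order of the first enzyme steps (collagenase before pronase) and an added Hoechst gate as well as in the tissue, and these cannot be told apart.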

How the data were processed

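Whole UMI counts per gene and well were deposited by the authors for every plate, without normalization or a filter on wells. For this the authors used bcl2fastq 2.20.0.422, FASTX-Toolkit, Drop-seq tools and the aligner STAR, with the genome GRCm39 and the annotation GENCODE M27 (versions of the other tools not used here). The deposited annotation of kept cells, made by the authors with Seurat, gave the clusters, the cell cycle phase and the percent of UMIs on mitochondrial genes.

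Cells of a cluster were summed per pool, since cells are not replicates, and tested with edgeR 4.0.16 in R 4.3.3 (TMM, filterByExpr, glmQLFit, glmQLFTest). All 18 sums entered 1 fit without a block. Pools were compared over 6 plate sums of enterocytes, and the difference from antrum pit cells was an interaction over 12 plate sums. P-values were adjusted by Benjamini-Hochberg over all genes tested, with a threshold of 0.05. The SE was taken from the F statistic, as the absolute log2 fold change divided by its root. Plates of a pool are technical replicates, so p-values between pools measure the spread between plates of these pools. Folds of genes at 0 UMIs use a floor of 3 UMIs over the group, and exact 95% intervals of ratios cover counting error only. Shares, UMIs and detected genes per plate were tested by exact permutation in Python 3.11.15 with scipy 1.17.1. DESeq2 1.42.0 was an alternative.

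Members and gene lists (29 lists, 291 genes, 289 in the tables) were chosen with earlier results of these data known. Single genes were named as list members, or by rule as the 5 largest rises and 5 largest falls per contrast among called genes that had 10 or more UMIs in each sum of the higher group and the same direction in both pools (no overlap of plates for the pools), or as the 5 genes with the highest Pearson's r to the markers on the log2 scale with 1 CPM added. Which list members the text describes was chosen after their values were seen. A gene that meets the rule is not reported here. Pools pair the samples, since a pool's clusters share their mice; the deviations of pools correlated by -0.036 to 0.075 over the 8 gastric clusters. On simulated counts with 2-fold and 4-fold changes, 45% and 80% were recovered for enterocytes against antrum pit cells (10604 genes), and 23% and 74% for the pools (3621 genes). The changes were planted in 100 genes per fold, picked above a limit on counts, and all genes shared 1 spread. Recovery among genes of low count, or with the spread of each gene, was therefore not measured.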

Additional observations from a re-analysis of the deposited data

Results flagged for a closer look

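The difference in S100a6 between the pools was itself different in enterocytes and in antrum pit cells, by -5.46 ± 0.67 on the log2 scale (adjusted p = 0.0013, edgeR interaction test over 12 plate sums). It was called in 11 of 14 settings and not without plate 31 (-5.08, adjusted p = 0.0683) and within Seurat cluster 5 (-4.78) or 7 (-6.94), where the values were of similar size. Of the 301 UMIs of pool 1, 298 were in 4 cells, and the enterocytes of pool 1 numbered 18.

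Enterocyte markers were found in 71 wells that were not kept as cells, because they had under 2500 detected genes, and in 27 with a stricter limit on the marker sum. Of these wells 52 were in pool 2, as were 52 of the 70 kept enterocytes, and their mitochondrial share had a median of 43.9% beside 13.4% in the kept enterocytes and 82.2% in the other wells under the minimum.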

How the results depend on the processing

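The pool sums gave 5107 called genes against antrum pit cells and 5606 against all gastric clusters. Leaving out the enterocytes of 1 pool gave 3339 to 4756 and 3666 to 5065, the lower value without pool 2, where fewer enterocytes are left. With the pool as a replicate block the counts were 5080 and 5590. Between the pools, 6 genes were called; without a filter on low counts there were 71, without the 4 cells with pit markers 10, within Seurat cluster 5 or 7 alone 0 each, and with 1 plate left out 3 to 9, the 3 without plate 30. Of single genes, S100a6 was called in 10 of 10 settings in which it passed the filter, Reg3b was called in 11 of 12 settings, Oat in 6 of 12, Ctse in 7 of 13, Pmm1 in 8 of 12 and Insig1 in 4 of 12. For the interaction, 1 gene was called; without a filter there were 51, by DESeq2 5, without the cells with pit markers 2, within Seurat cluster 5 or 7 alone 0 each, with plate as a replicate block 9, and with 1 plate left out 0 to 2, the 0 without plate 31. The cause of these changes was not tested, except that the fits within a Seurat cluster have fewer cells.

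The difference in UMIs per cell was -1.81 to -1.37 and that in thinned genes -357 to -309 with 1 plate left out, with p = 0.0625 each, the smallest exact permutation value that 5 plates allow. The wells under the minimum fell to 27 with the 5th percentile of the kept enterocytes as the limit and to 42 where a lower minimum of detected genes was asked of them as well. Of 790 values of named genes against antrum pit cells, 782 kept their direction and their side of the threshold, 5 were no longer called (Slc2a2 and Slc51b by DESeq2, Slc52a3 and Sox2 without pool 2, Mt1 against mature pit cells) and 3 were called where the reported fit had not (Lypd8); none reversed among all 965 values of named genes. Of the 72 named differences from antrum pit cells, 24 moved by over 1.5-fold against either pit cluster alone, 15 by DESeq2, 23 of 70 with plate sums, 7 without pool 1, 13 without pool 2 and 6 without the cells with pit markers. Alternatives without cells with pit markers and within a Seurat cluster were chosen after seeing the data.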
